A study of Mus musculus with 13 samples.

Results

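Macrophage marker genes were followed through RNA sequencing libraries of mouse embryonic fibroblasts, connective tissue cells grown from embryos. They are 10 of the 43629 genes counted: Csf1r, Adgre1, Lyz2, Cd68, Ptprc, Cd14, Tyrobp, Fcer1g, C1qa and C1qb. They were chosen by symbol, as known markers of macrophages, with their counts in all 13 libraries already known, and which of those values drew attention to them is not recorded. Their levels in total RNA are therefore given as a description, with no test.

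The study compared the RNA clients of IMP1 (gene Igf2bp1) and IMP2 (gene Igf2bp2), a pair of related RNA-binding proteins of the cytoplasm. All cells were labelled as embryonic fibroblasts of day E12.5, grown in DMEM with serum. Total RNA came from cells with IMP1 or IMP2 deleted (IMP1 KO, IMP2 KO) and from a wild-type culture for each deletion (IMP1 WT, IMP2 WT), with 1 library per culture. RNA immunoprecipitation (IP), in which an antibody recovers a protein with its bound RNA, gave 3 libraries each for IMP1, IMP2 and control IgG. The labels give no genotype for the IP cells, and do not say how the deletions were made, how many embryos a line came from or whether the IP libraries came from separate cultures. If they did not, p-values measure only the spread between these libraries, which may be technical.

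Macrophages are phagocytes of the blood lineage that settle in tissues during embryonic life, and preparations of embryonic cells can carry them. They need signalling through the receptor Csf1r, whose ligand Csf1 is made by fibroblasts. Their receptors for antibodies and cell debris signal through small adaptors such as Tyrobp and Fcer1g, they secrete the complement protein C1q, and they digest what they engulf with enzymes such as lysozyme. Of the 10 genes, Adgre1, Ptprc, Tyrobp, C1qa and C1qb are largely limited to blood-lineage cells, whereas Cd68 and Cd14 can also be made at low levels by other cell types.

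Gene counts per library ran from 11430002 to 17225308 in total RNA and from 11840189 to 21756430 in the IPs. Levels are in CPM, the count of a gene scaled to the total gene counts of its library, with no correction for gene length, so they compare libraries and not genes. Each knockout library had fewer reads of its own target. Igf2bp1 stood at 32.3 CPM in IMP1 WT and 3.32 with the gene deleted, and Igf2bp2 at 146 CPM in IMP2 WT and 27.8 with the gene deleted. Fibroblast markers were present in all 13 libraries: 12 of 12 reached 1 CPM in each total RNA library and 11 of 12 in each IP library. Their summed level was 36536 to 61639 CPM in total RNA and 22436 to 33410 CPM in the IPs.

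In total RNA, all 10 macrophage genes had their highest level in IMP2 KO cells and their lowest in IMP1 KO cells, with the WT libraries between them. Their summed level was 359.6 CPM in IMP2 KO, 41.7 in IMP2 WT, 31.4 in IMP1 WT and 14.8 in IMP1 KO. All 10 were at least 2-fold higher in IMP2 KO than in IMP2 WT, by 2.50-fold to 21.9-fold. Among all genes with at least 1 CPM in either library, 11.7% were at least 2-fold higher and 9.43% lower. In IMP1 KO, 6 of the 8 genes that reached 1 CPM in 1 of its libraries were at least 2-fold lower than in IMP1 WT and 0 higher, against 10.9% of all genes lower and 7.61% higher. Between the WT libraries 1 of 9, C1qa, was at least 2-fold lower in IMP1 WT and 0 higher, against 1.37% and 1.49% of all genes. With a minimum of 10 CPM, 8 of 8 marker genes were higher in IMP2 KO (all genes 7.81%), whereas for IMP1 KO and for the WT libraries the 1 gene left, Lyz2, was not 2-fold lower (all genes 5.9% and 0.158%). Of those 8 only Lyz2 reached 10 CPM in IMP2 WT. The rest passed this minimum through IMP2 KO alone, which favours a 2-fold call, so 8 of 8 is no stricter check. Each of these groups is 1 library, so no test was made, and the intervals given below cover counting error only. In bulk RNA, fewer macrophages and less of each message per macrophage cannot be told apart.

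**Figure D1:**
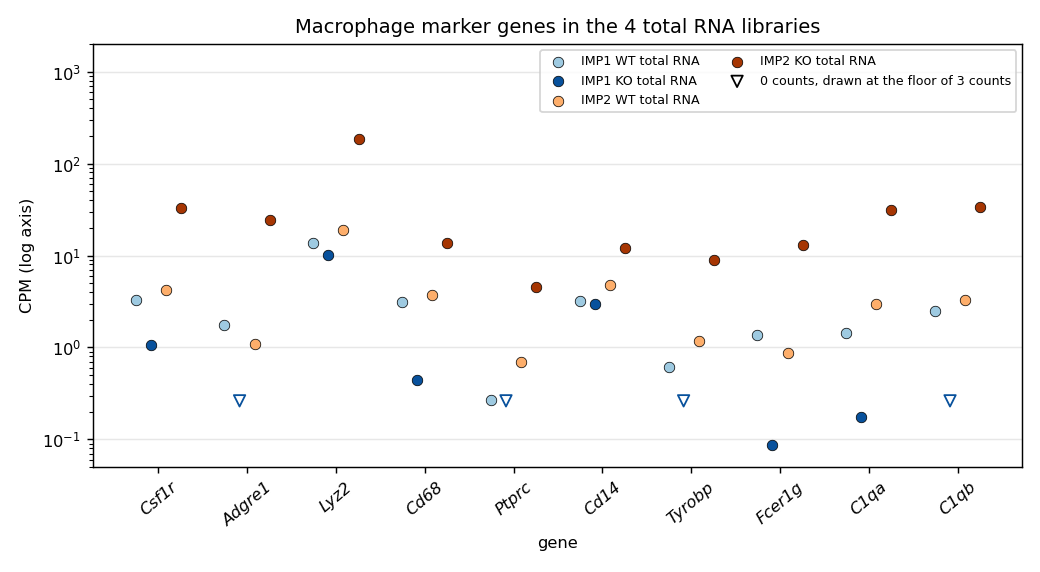
Level of each macrophage marker gene in the 4 total RNA libraries, in CPM on a log axis, 1 point per library. Open triangles mark 0 counts and are drawn at the level of 3 counts. The IMP2 KO point is the highest for each gene, and Adgre1, Ptprc, Tyrobp and C1qb had 0 counts in IMP1 KO.

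Among the receptors, Csf1r (ENSMUSG00000024621, GRCm38.p6 chromosome 18, 61105572 to 61131139), the receptor for the growth factor that keeps macrophages alive, stood at 32.9 CPM in IMP2 KO, 4.18 in IMP2 WT, 3.32 in IMP1 WT and 1.05 in IMP1 KO. The IMP2 KO library was thus far above the other 3, and was 7.87-fold above its wild type (95% counting interval 6.14 to 10.2). IMP1 KO was 3.16-fold below its wild type (95% counting interval 1.66 to 6.53). The ligand Csf1 was not 2-fold apart in IMP2 KO, at 624 CPM in the wild type and 537 with IMP2 deleted, and was lower in IMP1 KO, at 790 and 349 CPM. Cd14 (ENSMUSG00000051439, chromosome 18, 36725064 to 36726815), which hands bacterial lipopolysaccharide to its receptor Tlr4, stood at 12.1 CPM in IMP2 KO, 4.82 in IMP2 WT, 3.18 in IMP1 WT and 2.97 in IMP1 KO. Its 2.50-fold ratio in IMP2 KO (95% counting interval 1.93 to 3.27) was the smallest of the 10, and for IMP1 KO against IMP1 WT the interval ran from 0.583 to 1.48 and included equality.

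Adgre1 (ENSMUSG00000004730, GRCm38.p6 chromosome 17, 57358581 to 57483529), which encodes the F4/80 antigen used to stain mouse macrophages, had 401 counts in IMP2 KO (24.2 CPM), 19 in IMP2 WT (1.103 CPM), 26 in IMP1 WT (1.76 CPM) and 0 in IMP1 KO. It had the largest ratio of the 10 between IMP2 KO and IMP2 WT, 21.9-fold (95% counting interval 13.9 to 36.8). In IMP1 KO it was at least 5.08-fold lower than in IMP1 WT, by the near end of the 95% counting interval of 0 against 26 counts. Ptprc (ENSMUSG00000026395, chromosome 1, 138062859 to 138175756), the CD45 phosphatase carried by blood-lineage cells in general, was counted thinly. It had 75, 12, 4 and 0 counts in the same order of libraries, or 4.52 CPM in IMP2 KO and 0.697 in IMP2 WT. The IMP2 ratio was 6.50-fold (95% counting interval 3.51 to 13.1), and the IMP1 KO difference was not detectable at this depth.

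The adaptor Tyrobp (ENSMUSG00000030579, GRCm38.p6 chromosome 7, 30413782 to 30417582), also called DAP12, which carries the activation motif for receptors such as Trem2, stood at 8.93 CPM in IMP2 KO, 1.16 in IMP2 WT and 0.610 in IMP1 WT, and had 0 counts in IMP1 KO. Fcer1g (ENSMUSG00000058715, chromosome 1, 171229572 to 171234349), the adaptor chain shared by several Fc receptors, stood at 13.1, 0.871, 1.36 and 0.0875 CPM in the same order, the last from 1 count. Both adaptors were therefore abundant in 1 library and near the limit of counting in IMP1 KO. The IMP2 KO ratio was 7.69-fold for Tyrobp (95% counting interval 4.80 to 12.96) and 15.0-fold for Fcer1g (8.92 to 27.3). Tyrobp was at least 1.53-fold lower in IMP1 KO than in IMP1 WT, by the near end of the counting interval.

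C1qa (ENSMUSG00000036887) and C1qb (ENSMUSG00000036905) encode chains of C1q, the protein that starts the classical complement pathway. They lie with C1qc, the gene of the remaining chain, in 18.7 kb of chromosome 4 (GRCm38.p6, 136880126 to 136898844). C1qa stood at 31.1 CPM in IMP2 KO, 2.96 in IMP2 WT, 1.42 in IMP1 WT and 0.175 in IMP1 KO, the last from 2 counts. C1qb stood at 33.8, 3.31 and 2.51 CPM, with 0 counts in IMP1 KO. These neighbours thus had nearly the same ratio in IMP2 KO against IMP2 WT, 10.5-fold for C1qa (95% counting interval 7.86 to 14.3) and 10.2-fold for C1qb (7.77 to 13.7). C1qc, from the list of other macrophage genes, was 8.86-fold higher (6.66 to 12.01). In IMP1 KO, C1qb was at least 7.39-fold lower than in IMP1 WT by the near end of the counting interval, and the C1qa ratio was 8.13-fold with a wide interval (1.99 to 71.5).

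Lyz2 (ENSMUSG00000069516, GRCm38.p6 chromosome 10, 117277541 to 117282272), the lysozyme of macrophages and other myeloid cells, stood at 185.6 CPM in IMP2 KO, 18.9 in IMP2 WT, 13.8 in IMP1 WT and 10.1 in IMP1 KO. Its ratio was 9.81-fold in IMP2 KO (95% counting interval 8.74 to 11.03), but in IMP1 KO only 1.37-fold lower (1.09 to 1.74). Its near-identical neighbour Lyz1 had at most 0.121 CPM in total RNA, and how reads matching both copies were counted is not stated by the labels, so Lyz2 is uncertain to that extent. Cd68 (ENSMUSG00000018774, chromosome 11, 69664213 to 69666170), a glycoprotein of lysosomal membranes, stood at 13.5 CPM in IMP2 KO, 3.72 in IMP2 WT, 3.12 in IMP1 WT and 0.437 in IMP1 KO. It was 3.64-fold higher in IMP2 KO (95% counting interval 2.74 to 4.88) and 7.13-fold lower in IMP1 KO (2.84 to 23.0). The 10 genes therefore shared a direction but not a size: the intervals of Cd14 and Cd68 in IMP2 KO lay below those of Csf1r, Adgre1, Lyz2, Fcer1g, C1qa and C1qb.

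**Figure D2:**
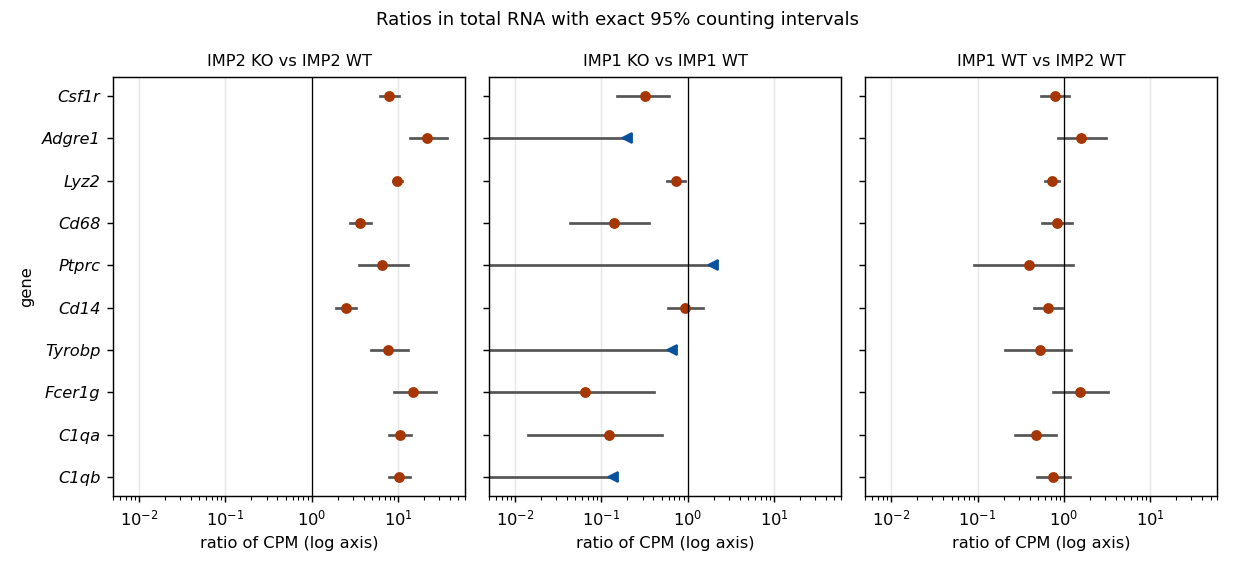
Ratio of CPM for each macrophage marker gene in 3 comparisons of total RNA libraries, on a log axis, with lines for exact 95% counting intervals. Circles are ratios, and triangles mark the upper end of the interval where the first library had 0 counts. In IMP2 KO all ratios lie above 2, and in the comparison of the WT libraries the intervals of Lyz2, Cd14 and C1qa exclude 1.

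Stretches of 120 bases before the transcription start are shown for 5 of the 10 marker genes, from the RefSeq promoter table (GRCm38.p6). All 10 were highest in IMP2 KO and lowest in IMP1 KO, so that pattern did not select these 5. The promoter table had no entry for Adgre1, Tyrobp and C1qa. Csf1r and Cd14 were left out of the search, so matches are known for the 5 genes shown only. Many myeloid promoters are known to bind PU.1, a factor of the ETS family encoded by Spi1, whose binding sites contain GGAA. The motif GGAAGT was searched on both strands, and matches are in capitals, ACTTCC being the motif on the opposite strand. Sequences are written 5′ to 3′ on the strand of the gene, all of them on the minus strand of the genome.
Lyz2, chr10:117282273-117282392: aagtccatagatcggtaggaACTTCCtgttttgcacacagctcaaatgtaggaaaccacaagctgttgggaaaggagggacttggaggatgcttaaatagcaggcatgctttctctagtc
C1qb, chr4:136886201-136886320: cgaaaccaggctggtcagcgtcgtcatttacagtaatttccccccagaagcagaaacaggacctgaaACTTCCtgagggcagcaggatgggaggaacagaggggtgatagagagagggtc
Ptprc, chr1:138175306-138175425: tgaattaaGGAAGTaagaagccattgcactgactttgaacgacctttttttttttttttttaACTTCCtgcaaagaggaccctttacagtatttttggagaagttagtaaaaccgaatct
Fcer1g, chr1:171234350-171234469: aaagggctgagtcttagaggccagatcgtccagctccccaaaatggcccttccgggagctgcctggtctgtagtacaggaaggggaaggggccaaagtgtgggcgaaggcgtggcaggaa
Cd68, chr11:69666171-69666290: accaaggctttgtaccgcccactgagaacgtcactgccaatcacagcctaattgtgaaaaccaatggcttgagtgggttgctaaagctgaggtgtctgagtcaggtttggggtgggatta

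The motif was present before the start of Lyz2 (100 bases upstream), C1qb (53 bases) and Ptprc (112 and 58 bases), and not in the windows of Fcer1g and Cd68. Ptprc has a second start in the table, whose window held no match. Over all 32851 starts in the table, 11.6% of windows of this length held a match. A match is a run of letters and does not show binding, and a window without one says nothing of the factor. Spi1 itself, the gene of PU.1, stood at 3.50 CPM in IMP2 KO, 0.871 in IMP2 WT and 0.542 in IMP1 WT, and had 0 counts in IMP1 KO.

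In a list of 50 other macrophage genes, most were highest in IMP2 KO and lowest in IMP1 KO. In IMP2 KO, 36 of the 42 that reached 1 CPM were at least 2-fold higher than in IMP2 WT and 1 was at least 2-fold lower, with a median log2 ratio of 2.55. The median was 3.11 for the 10 marker genes and 0.017 for all genes with at least 1 CPM, of which 11.7% were higher and 9.43% lower. All 42 reached 1 CPM in IMP2 KO but only 16 did in IMP2 WT. Entry through the higher library alone favours a 2-fold call and raises the median. Laptm5, a lysosomal protein of blood cells, stood at 34.7 CPM against 3.66. Mrc1, the mannose receptor, stood at 28.4 CPM against 0.871, or 32.6-fold (95% counting interval 19.6 to 58.8). Mrc1, Spi1 and C1qc were chosen after their values were seen. Arhgdib was the 1 lower gene, at 191 CPM in the wild type and 59.5 with IMP2 deleted. In IMP1 KO, 11 of 16 genes of the list were at least 2-fold lower and 3 higher than in IMP1 WT (median -1.74, against -2.42 for the marker genes and 0.00828 for all genes), and 30 of the 50 had 0 counts. Over all genes 10.9% were lower and 7.61% higher. Of the 16 genes, 15 reached 1 CPM in IMP1 WT and 8 in IMP1 KO.

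**Figure D3:**
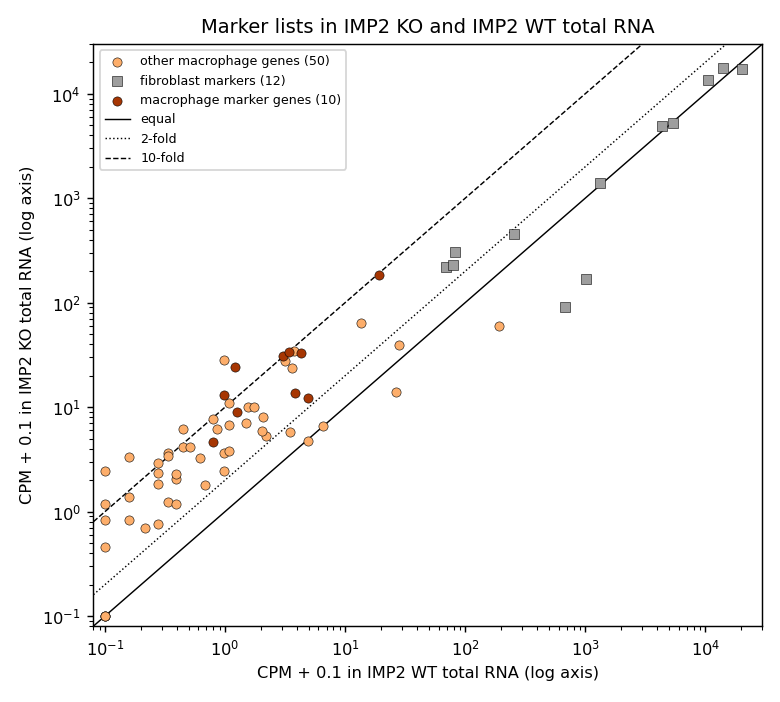
Level in IMP2 KO against IMP2 WT total RNA, both in CPM plus 0.1 on log axes, 1 point per gene for the 10 macrophage marker genes, 50 other macrophage genes and 12 fibroblast markers. The macrophage marker genes lie above the 2-fold line, Adgre1 at 24.2 CPM against 1.103 among those above the 10-fold line, whereas fibroblast markers lie on both sides of the line of equality.

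Lists of other cell types that the cultures could hold did not share 1 direction. In IMP2 KO against IMP2 WT, counting genes with at least 1 CPM in either library, 1 of 4 megakaryocyte markers was at least 2-fold higher and 1 lower, and of 4 endothelial markers 1 was higher and 2 lower. Of 4 dendritic cell markers 1 was higher and 2 lower, of 3 osteoclast markers 1 was higher, and the 1 B cell and the 1 erythroid marker were both higher. The platelet chemokine genes Pf4 and Ppbp went apart there: Pf4 stood at 3.38 CPM in IMP2 KO and 0.116 in its wild type, and Ppbp at 24.3 and 49.3 CPM. In IMP1 KO, Ppbp had 0 counts, against 27.0 CPM in its wild type, and the endothelial receptor Flt1 stood at 108 CPM against 29.1. Of the 9 mast cell markers 3 reached 1 CPM in IMP1 KO and the other 6 had 0 counts. Kit stood at 16.9 CPM and Cpa3 at 4.72 CPM there, against at most 0.136 and 0.543 CPM in the other total RNA libraries, and Gata2 at 39.8 CPM against 36.3 in IMP1 WT. No neutrophil marker reached 1 CPM in any library, and no T and NK cell marker did in IMP2 KO or IMP2 WT total RNA. The part of these cell types in the marker genes' levels was not tested. Fibroblast markers differed in both directions in IMP2 KO, 3 of 12 at least 2-fold higher and 2 lower, and in IMP1 KO 2 were higher and 4 lower. Lum is a fibroblast proteoglycan chosen after its values were seen. It stood at 227 CPM in IMP2 KO, 79.6 in IMP2 WT, 42.4 in IMP1 WT and 6.39 in IMP1 KO. Like the macrophage marker genes, Lum was thus highest in IMP2 KO and lowest in IMP1 KO. The part of such differences between the fibroblasts in the macrophage gene levels was not tested.

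Other genes of the marker genes' pathways had varied directions. Of the complement components, 11 of 11 that reached 1 CPM, C1q chains included, were at least 2-fold higher in IMP2 KO than in IMP2 WT. C3, the central component, stood at 300.3 CPM against 7.90, and C4b, which acts after C1q, at 244 CPM against 5.63. In IMP1 KO, 4 of 11 components were at least 2-fold higher and 5 lower than in IMP1 WT, with a median log2 ratio of -0.93. The protease C1s1 stood at 111 CPM against 19.7, whereas C4b had 3 counts, or 0.262 CPM against 4.54 (ratio 0.0578, 95% counting interval 0.0116 to 0.176). Of the adaptors with their receptors and kinases, 5 of 10 were at least 2-fold higher in IMP2 KO and 1 lower. The 5 are Tyrobp and Fcer1g themselves and the receptors Trem2, Fcgr1 and Fcgr3. Fcgr3, an Fc receptor that pairs with Fcer1g, stood at 9.89 CPM against 1.63, and the kinase Syk, which binds the adaptors, at 1.69 CPM against 7.84. Of the lipopolysaccharide sensing genes 1 of 9, Cd14 itself, was 2-fold apart in IMP2 KO, and Myd88, an adaptor downstream of Tlr4, stood at 39.6 CPM against 40.5. Of the lysosome and phagocyte enzymes, 3 of 13 were at least 2-fold higher, Lyz2 and Cd68 among them, and the protease Ctsd stood at 1524 CPM against 2336.

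Highest in IMP2 KO and lowest in IMP1 KO was the order of 13.4% of the 14275 genes with at least 1 CPM in total RNA, of all 10 marker genes and of 32 of 42 other macrophage genes. Highest in IMP2 KO, whatever the order of the rest, were 33.4% of all genes. The 10 genes most like the mean of the markers, by Pearson's r of log2(CPM + 1) over the 13 libraries among 13275 genes, had r of 0.987 to 0.993. Libraries of a group share preparation, so r is a description. The mean of the markers was 4.46 in IMP2 KO and at most 1.94, in IMP2 WT, elsewhere, so r rests largely on that 1 knockout library. The 10 genes were Nkx3-2, Mlip, Msr1, Shisa2, Ntrk3, Ptpn7, Cd52, Olfml1, Lin7a and Sfrp2. Msr1 is a macrophage scavenger receptor and Cd52 a leukocyte surface protein, whereas Nkx3-2 is a transcription factor of skeletal development and Sfrp2 a secreted modulator of Wnt signalling. Sfrp2 stood at 948 CPM in IMP2 KO, 9.35 in IMP2 WT, 6.57 in IMP1 WT and 0.525 in IMP1 KO.

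In the pull-downs, 4 of the 10 marker genes were not seen. Adgre1, Tyrobp, C1qa and C1qb had 0 counts in all 9 IP libraries, among 152643078 gene counts, which allows up to 0.0197 CPM over the 9 libraries together. Ptprc had 9 counts in all IP libraries and Fcer1g 18. Csf1r, Lyz2, Cd68 and Cd14 were counted in every IP library, at 1.77 to 14.1 CPM. Of all genes with at least 1 CPM in 1 of the total RNA libraries, 1.58% had 0 counts in all 9 IP libraries, against 4 of the 10 marker genes and 8 of 42 other macrophage genes. The 1.58% was not matched to these genes by level, and scarce genes reach 0 counts more easily. Of the 42 genes, only 15 reached 1 CPM in IMP1 WT, 16 in IMP2 WT and 8 in IMP1 KO. The IP libraries thus held reads of 6 of the 10 genes and none of Adgre1, Tyrobp, C1qa and C1qb. These are 4 of the 5 named above as largely limited to blood-lineage cells, and the other, Ptprc, had the 9 counts. That naming was made with the counts known. It did not place Csf1r, Lyz2 and Fcer1g, which had 397, 618 and 18 counts in the IPs, so no link with cell type is drawn.

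The make-up of the counts showed the same division. Adgre1, Tyrobp, C1qa and C1qb together took 20.1% of the 10 genes' counts in IMP1 WT (exact 95% binomial interval 16.5 to 24.0) and 20.4% in IMP2 WT (17.6 to 23.6). They took 27.2% in IMP2 KO (26.1 to 28.4) and 1.18% in IMP1 KO (0.144 to 4.21). In the IP libraries the share was 0, with upper limits of the same interval between 0.575% and 1.62% per library. These 4 genes were grouped because they had no counts in the IPs, so that last value is set by the choice. Lum, which is not a macrophage gene, also nearly vanished from the IPs, at 0 to 0.0919 CPM. IP and total RNA libraries differ in preparation and perhaps in cells, which cannot be told apart here.

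**Figure D4:**
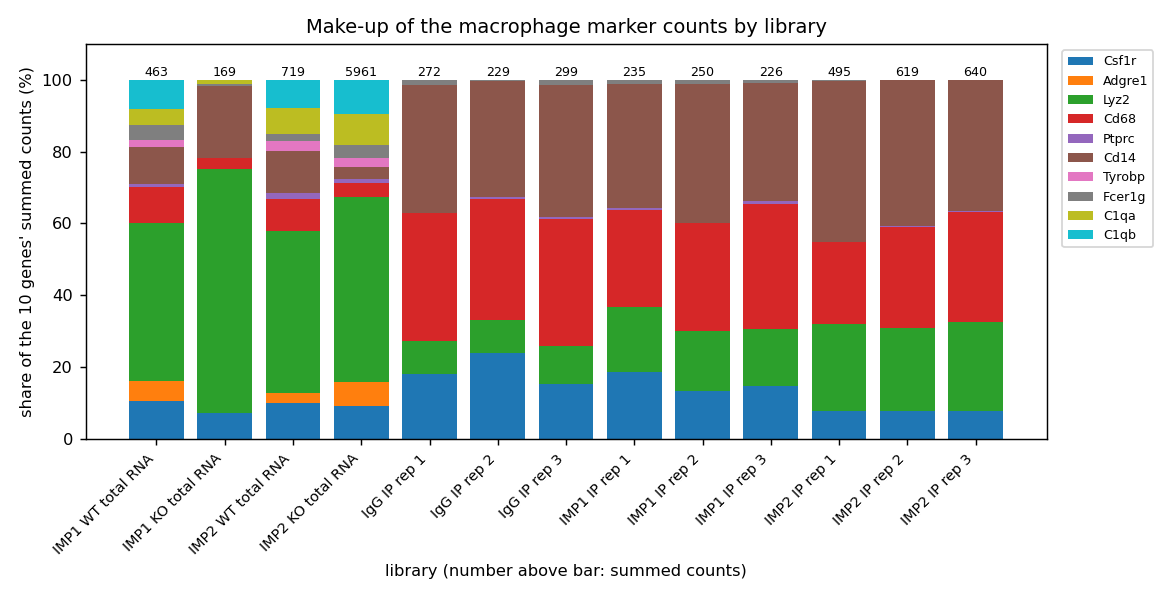
Share of each gene in the summed counts of the 10 macrophage marker genes, in percent, for the 13 libraries, with the summed counts above each bar. Bars of WT and IMP2 KO total RNA hold all 10 genes, whereas IP bars consist almost wholly of Csf1r, Lyz2, Cd68 and Cd14.

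The IP comparisons asked which messages each protein recovers above the IgG background, and 4 marker genes passed the expression filter there, all others having too few counts. Lyz2 was higher with IMP2 than with IgG, Cd14 was higher with IMP2 and lower with IMP1 than with IgG, and Csf1r was lower with both proteins. By edgeR's quasi-likelihood test over all 14076 genes, 3 of the 4 passed an adjusted p of 0.05 in each comparison, against 63.6% of all genes for IMP1 against IgG, 77.6% for IMP2 against IgG and 71.4% for IMP1 against IMP2. For IMP1 against IgG all 3 were lower (all genes 31.9% lower and 31.7% higher), for IMP2 against IgG 2 were higher and 1 lower (40.3% and 37.3%), and for IMP1 against IMP2 all 3 were lower (37.3% lower and 34.1% higher). In each comparison the genes that passed had no overlap between libraries, as did 71.1%, 80.4% and 75.8% of all genes in that order. These shares are near the background and are no result about the marker genes as a group. The counts of these genes in the IP libraries were also known when they were chosen, so the p-values below describe each gene in the fit over all genes and are not independent support. Each pair of these comparisons shares 3 libraries. The IgG libraries also had more of their read records outside any gene, 24.2% to 25.2%. That range was 4.70% to 5.22% with IMP2 and 7.43% to 7.66% with IMP1. The part of this difference in the contrasts with IgG was not tested.

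Lyz2 stood at 7.57, 7.09 and 7.31 CPM in the IMP2 IP libraries, 2.22, 2.37 and 1.99 in IMP1 IP and 1.80, 1.77 and 2.13 in IgG IP. The IMP2 libraries did not overlap the others, while IMP1 and IgG overlapped. The mean of 7.32 ± 0.241 CPM in IMP2 IP (SD, n = 3) against 1.90 ± 0.200 in IgG IP gave a log2 fold change of 1.76 (SE 0.148, edgeR adjusted p = 4.59e-10). IMP1 IP was lower than IMP2 IP by a log2 fold change of -1.41 (SE 0.132, edgeR adjusted p = 2.43e-09), and against IgG its value of 0.35 (SE 0.186) did not pass (edgeR adjusted p = 0.131).

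Cd14 stood at 14.1, 12.49 and 10.8 CPM in IMP2 IP, 4.28, 5.48 and 4.10 in IMP1 IP and 6.97, 6.25 and 7.56 in IgG IP. All 3 groups were apart, with IMP2 highest and IMP1 lowest. The log2 fold change was 0.65 for IMP2 against IgG (SE 0.125, edgeR adjusted p = 6.73e-05) and -1.09 for IMP1 against IMP2 (SE 0.127, edgeR adjusted p = 7.46e-08). For IMP1 against IgG it was -0.44 (SE 0.148, edgeR adjusted p = 0.0123), a call that was lost without IgG IP replicate 3 (edgeR adjusted p = 0.0732), without IMP1 IP replicate 1 (0.054) and without IMP1 IP replicate 3 (0.0594).

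Cd68 stood at 7.25, 8.63 and 9.01 CPM in IMP2 IP, 3.38, 4.24 and 4.37 in IMP1 IP and 6.97, 6.50 and 7.29 in IgG IP. The IMP1 libraries lay below the rest, and 1 IMP2 library lay within the range of IgG. The log2 fold change was -0.65 for IMP1 against IgG (SE 0.137, edgeR adjusted p = 0.000301) and -0.74 for IMP1 against IMP2 (SE 0.126, edgeR adjusted p = 1.66e-05). For IMP2 against IgG it was 0.09 (SE 0.12, edgeR adjusted p = 0.484). That direction depended on the scaling: it was -0.08 with upper quartile scaling and 0.27 with total count scaling, which put it past the threshold (adjusted p = 0.0468).

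Csf1r stood at 3.52, 4.65 and 3.16 CPM in IgG IP, 2.32, 1.86 and 1.83 in IMP1 IP and 2.48, 2.38 and 2.298 in IMP2 IP. IgG was the highest group, without overlap. The log2 fold change was -0.74 for IMP1 (SE 0.182, edgeR adjusted p = 0.00125) and -0.82 for IMP2 (SE 0.174, edgeR adjusted p = 0.000198) against IgG. IMP1 and IMP2 differed by 0.08 (SE 0.186, edgeR adjusted p = 0.697). Its ligand Csf1 was recovered above IgG by both, with log2 fold changes of 0.28 for IMP1 (edgeR adjusted p = 8.06e-08) and 0.21 for IMP2 (edgeR adjusted p = 3.9e-06). The other 2 tested genes of this axis, Csf2ra and Il34, were at -1.21 and -0.33 for IMP1 and at -0.96 and -0.09 for IMP2, of which the Csf2ra values passed (edgeR adjusted p = 0.00293 and 0.00559).

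**Figure D5:**
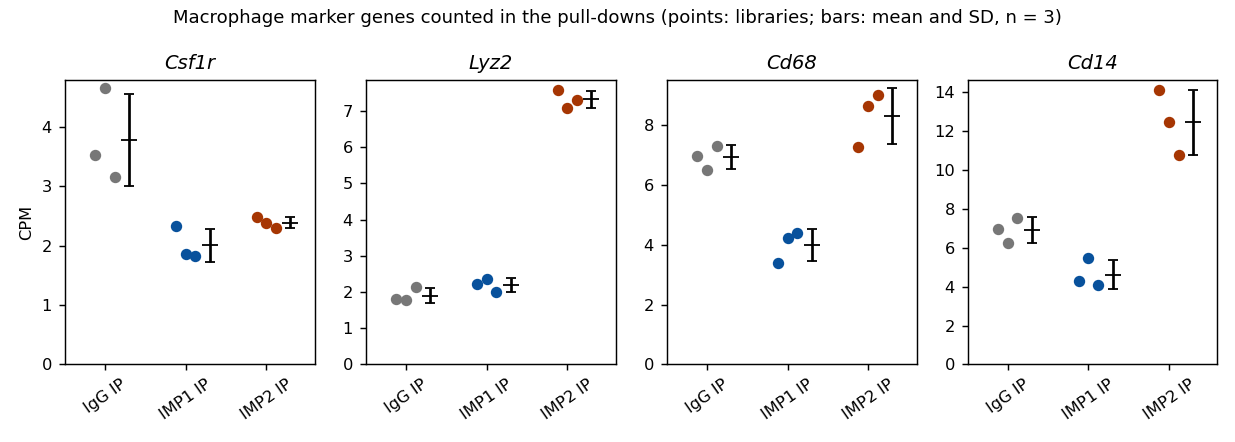
Level in CPM of the 4 macrophage marker genes that passed the expression filter, 1 point per IP library, with the mean and SD of 3 libraries beside each group. Lyz2 and Cd14 are highest in IMP2 IP, Cd68 is lowest in IMP1 IP and Csf1r is highest in IgG IP.

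Fcer1g and Ptprc were below the filter. Fcer1g had 4, 1 and 4 counts in the IgG IP libraries, 3, 3 and 2 in IMP1 IP and 1, 0 and 0 in IMP2 IP, and Ptprc at most 2 in any IP library. With no filter, Fcer1g passed as lower in IMP2 IP than in IgG IP (edgeR adjusted p = 0.00898) and than in IMP1 IP (edgeR adjusted p = 0.036), values that rest on these few counts. Ptprc did not pass in any comparison with no filter (edgeR adjusted p = 0.762 to 0.956). In the other macrophage list 8 of 50 genes were tested, and the counts higher and lower were 2 and 3 for IMP1 against IgG, and 2 and 1 for IMP2 against IgG. Over all genes 31.7% were higher and 31.9% lower for IMP1, and 40.3% and 37.3% for IMP2. With so few genes tested, these counts are no result about the list. The list's median log2 fold change was -0.21 and 0.23, against -0.03 and 0.04 for all genes tested.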

How the data were processed

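The deposited files hold raw read counts per Ensembl gene, 1 file for each of 13 libraries, made by the authors with STAR and HTSeq on build mm10, per the submitters' processing notes; versions, settings, annotation release and use of strand are not given in the sources used here. The 5 tally lines of each file were left out. Symbols came from a table of Ensembl IDs (42462 of 43629 genes matched), positions and promoters from RefSeq GRCm38.p6. The marker genes and all gene lists were chosen with earlier results of these data known.

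IP libraries were fitted together in R 4.3.3 with edgeR 4.0.16 (TMM, default expression filter by group, quasi-likelihood F test, two-sided, Benjamini-Hochberg over all genes). The SE was taken from the fold change and its F statistic (log2 scale). Total RNA, with 1 library a group, was not tested: ratios of CPM carry exact conditional 95% counting intervals, a fold against 0 counts is given as the near end of that interval, a limit for 0 counts over the IP libraries is 3 counts, and log2 ratios use a prior count of 2. PCR duplicates are not independent, so intervals cover counting error only. Within IP groups, replicates differed by more than sampling noise (chi-square per gene 1.14 to 8.07). The largest values were those of IMP2 IP replicate 1, at 7.70 against replicate 2 and 8.07 against replicate 3. Replicates 2 and 3 of IMP2 IP gave 2.75, and pairs of the other groups 1.14 to 2.60. Data simulated for IMP1 against IgG (13963 genes) gave every gene the same spread between replicates, 3.84% as a coefficient of variation. In them 50 genes, all above 1 CPM, were changed at each fold size. There edgeR found 94% of genes with a 2-fold change and 58% of those with a 1.25-fold change. It gave 6 false calls among 13763 unchanged genes. Many more genes were called in the real libraries, so these rates need not hold for them.

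Named genes are the 10 markers, the 4 highest of each list in total RNA where discussed, the targeted genes, Lyz1 and the 10 genes most like the markers; others, among them Pf4, Trem2 and Fcgr1, were chosen after their values were seen. Alternatives were DESeq2 1.42.0, limma voom (limma 3.58.1), other scalings, filters, prior counts and samples, a replicate block and each IP library left out. Some genes of the other lists are not reported here by name.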

Additional observations from a re-analysis of the deposited data

Results flagged for a closer look

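The knockouts lay on opposite sides of their wild types for all 10 macrophage marker genes, higher in IMP2 KO and lower in IMP1 KO, and the difference between them was not tested, since each group is 1 library. The log2 ratio of IMP2 KO to IMP2 WT exceeded that of IMP1 KO to IMP1 WT by 8.13 for Adgre1, 7.61 for C1qb, 6.47 for Fcer1g, 5.67 for C1qa and 5.29 for Tyrobp. It exceeded it by 4.48 for Csf1r, 4.34 for Cd68, 4.09 for Ptprc, 3.74 for Lyz2 and 1.395 for Cd14. The values of Adgre1, C1qb, Tyrobp and Ptprc, at 0 counts in IMP1 KO, depend on the prior count of 2, and for Cd14 and Ptprc the counting interval in IMP1 KO included equality.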

How the results depend on the processing

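Of 216 recomputed IP fold changes, 209 kept their direction and side of the threshold. All 120 recomputed ratios in total RNA kept their direction and stayed within the counting interval. The number of marker genes called stayed near the main one in 54 of 54 IP recomputations and in 7 of 9 for total RNA. Here 2 in place of 3 was taken as near. With at least 10 CPM in place of 1 CPM, the marker genes at least 2-fold apart came to 0 for IMP1 KO against IMP1 WT and 0 for IMP1 WT against IMP2 WT, since 1 gene was left, and to 8 of 8 for IMP2 KO. In IMP2 WT only Lyz2 reached 10 CPM, so this 8 of 8 is no stricter check. For Cd68 in IMP2 against IgG IP, the log2 fold change was -0.085 with upper quartile and 0.27 with total count scaling. For Csf1r in IMP1 against IMP2 IP, it was -0.24 with total count scaling and from -0.045 (without IMP1 IP replicate 1) to 0.16 with 1 library left out, none of these past the threshold. With each IP library left out, Cd14 in IMP1 against IgG IP ranged from -0.57 to -0.36, and the marker genes called from 2 to 3 for IMP1 against IgG and 3 in the other comparisons. Upper quartile scaling put the median of all genes at -0.20 for IMP1 and -0.14 for IMP2 against IgG, total count scaling at -0.19 and 0.21, from -0.03 and 0.04. With the replicate block, 3 marker genes were called in each comparison; same-numbered libraries did not deviate together (r -0.0587 to 0.0733), so they share only a number.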
